A study of Mus musculus with 18 samples.

Results

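The Affymetrix mouse array used here has 45037 probe sets besides its controls, and 15588 of them carry no gene symbol in the probe-to-gene table supplied with the data. Of these 15588 unnamed probe sets, the 2579 (16.5%) whose mean over the 18 arrays was at least 8 on the log2 scale are described here. An unnamed probe set is one that the table leaves unnamed, which does not show that it lies outside a gene. The 2579 make up 23.0% of all probe sets at that level, and the other 8614 carry a symbol (207 of them more than 1) and serve as the comparison. The members were chosen by this mean level, a measured value, which ran from 8.001 to 13.31 with a median of 9.11. Just above the threshold lay 1438172_PM_x_at, 1430439_PM_at and 1445708_PM_x_at at 8.001. Just below it lay 1425393_PM_a_at at 8.00 and 1416469_PM_at and 1441465_PM_at at 7.999. The 5 members with the highest mean were 1438839_PM_a_at at 13.31, 1421754_PM_at at 13.13, 1447763_PM_at at 12.98, and 1438649_PM_x_at and 1425467_PM_a_at at 12.87. The brightness of a probe set depends on its probes as well as on its RNA, so the level is used only to set probe sets of like brightness side by side.

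The arrays came from mice aged 6 weeks whose cortex and striatum were dissected together. Of the 6 animals 2 were WT, 2 were CPEB4 GT/+, with the GT allele on 1 of their copies of Cpeb4, and 2 were CPEB4 KO. Each animal gave total RNA (INPUT) and 2 fractions from a poly(U) agarose column: WASH, released with 25% formamide and enriched for short poly(A) tails, and ELUTED, released with 90% formamide and enriched for long tails. Amplification started from 5 ng of RNA, ran for 21 cycles and was followed by labelling with biotin. The labels give no strain, sex, litter or source of the alleles. With 2 animals a genotype, an exact permutation test of 2 against 2 cannot go below p = 0.333. The tissue is bulk, so fewer cells of a type and less RNA per cell cannot be told apart.

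A poly(A) tail is the run of adenosines added to the 3′ end of most mRNAs and many long noncoding RNAs, and its length bears on stability and translation. CPEB4 is a cytoplasmic protein that binds elements in the 3′ ends of mRNAs and takes part in changing the length of their tails. The submitters' text calls the arrays PrimeView, while the PM in the IDs belongs to a different mouse design, and the endings are read here as on arrays with such IDs. There the end of a probe set's ID tells how specific its probes were judged to be. Names ending in a plain _at were designed for 1 transcript, _a_at for several transcripts of 1 gene, _s_at for transcripts shared among genes or variants, and _x_at sets hold probes that can also bind unrelated transcripts. Many probe sets of such arrays were designed from cDNA clones or sequence tags, and several of them can lie on 1 transcript.

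The members' threshold of 8 lay above the nonspecific controls, whose highest mean of 23 was 6.72 in INPUT, 5.12 in WASH and 5.31 in ELUTED, and the array medians ran from 6.32 to 6.48. The means of the 3 Cpeb4 probe sets stepped down from WT through CPEB4 GT/+ to CPEB4 KO in each fraction. At 1449931_PM_at the INPUT means were 8.31, 7.25 and 6.73, with a KO minus WT difference of -1.58 (limma adjusted p = 0.0422). Its CPEB4 KO level is that of the brightest nonspecific control in INPUT, so the difference is a limit on the size of the fall, and 1420617_PM_at lay under that control in INPUT in every genotype (5.97, 5.51 and 5.02). Markers of neurons, oligodendrocytes, astrocytes and microglia lay above 5.61, the highest mean of a nonspecific control over all fractions. So did 3 genes not expected in this tissue, at INPUT means of 7.05 to 7.29, so lying above it does not tell presence. Alb, which is among them, was at 12.08 in the INPUT of CPEB4 KO 1 and at 6.14 to 6.35 on the other INPUT arrays. Of those 3 genes 0 reached a mean level of 8. Of the listed markers with a probe set, 2 of 3 cortical excitatory, 3 of 4 striatal and 2 of 2 GABA neuron markers reached this level. So did 3 of 3 oligodendrocyte, 3 of 4 astrocyte, 3 of 4 microglia, 1 of 3 endothelial and 1 of 1 blood markers. Among arrays of one group the correlation across members, which are not independent, was 0.983 to 0.988 except in the ELUTED fractions of CPEB4 GT/+ (0.929) and CPEB4 KO (0.969). The ELUTED arrays of CPEB4 GT/+ 2 and CPEB4 KO 2 had 24 and 17 probe sets more than 1 log2 unit below all other ELUTED arrays, of which 4 and 8 were members.

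The INPUT array of CPEB4 KO 1 stood apart. On it 332 probe sets were more than 1 log2 unit above all other INPUT arrays, against 0 to 2 on each of the other 5. A list of 8 liver genes, chosen after this was seen, had a mean level of 10.97 on this array and of 4.98 to 5.25 on the other 17. Alb, the gene of serum albumin, was at 12.08 there against 6.14 to 6.35 on the other INPUT arrays, and at 6.16 in the WASH and 6.53 in the ELUTED RNA of the same animal. Of the 332 probe sets 4 were members. 1434987_PM_at was at 12.57 against 10.85 to 11.13 on the other INPUT arrays, and 1434988_PM_x_at, next to it in number, at 12.56 against 10.87 to 11.12. The others were 1438156_PM_x_at, at 9.68 against 7.30 to 7.90, and 1452975_PM_at, at 9.21 against 7.12 to 8.14. Without this array 2570 members kept a mean of at least 8. The array enters no ELUTED minus WASH value. For the INPUT comparisons of CPEB4 KO the members' medians and several named members are also given without it. The members' median of both column fractions against INPUT is given without this animal too.

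The first comparison asked on which side of the tail length split the unnamed probe sets lay, taking log2 ELUTED minus log2 WASH within each animal over the 3 genotypes. Unnamed probe sets included far more large differences towards long tails than symbol-bearing ones of the same level. Of the 2579 members, 725 (28.1%) were higher in ELUTED and 1317 (51.1%) lower at a limma adjusted p under 0.05, where the same calls took in 36.8% and 38.9% of all 33777 probe sets tested, or 75.6% together. Among symbol-bearing probe sets matched to the members on level, 15.8% were higher and 59.2% lower. The split of the members moved with the scaling: 35.5% of their calls were higher with the deposited values, 29.3% with arrays centred on their medians, 15.1% with arrays aligned on their hybridisation controls and 54.5% after quantile normalization. The arrays were normalized to each other before deposit, so each difference is relative to the other probe sets and the total amount of tailed RNA was not measured. The members' median was -0.21 (quartiles -0.60 and 0.29), that of matched symbol-bearing probe sets -0.31, and that of all probe sets tested -0.003. The members also spread more widely, with an SD across probe sets of 0.74 against 0.54. All 6 animals lay on 1 side of 0 for 2006 members (77.8%), where this held for 72.6% of all probe sets tested.

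The difference from symbol-bearing probe sets sat in the upper tail of the distribution. In all 251 members (9.73%) were called and higher in ELUTED by at least 1, a doubling, against 84 of 8614 symbol-bearing probe sets (0.975%) and 4.36% of all tested. On the other side 234 members (9.07%) and 920 symbol-bearing probe sets (10.7%) were called and lower by at least 1, against 7.03% of all tested. Of the 251 members, 156 (62.2%) were higher by at least 1 in every one of the 6 animals, compared with 29 of the 84 symbol-bearing probe sets (34.5%). Of the 234, 24 (10.3%) were lower by at least 1 in every animal. With arrays aligned on the hybridisation controls 92 members (3.57%) and 0.163% of symbol-bearing probe sets were higher by at least 1, and after quantile normalization 357 (13.8%) and 2.57%. Members had the larger share in each of these scalings.

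The gap was largest at the lowest levels. Among members at 8 to 8.5 the median difference was 0.004 and 17.5% were higher by at least 1, against -0.37 and 1.86% of symbol-bearing probe sets in that range. At 8.5 to 9 the shares were 11.7% and 0.976%, at 9 to 9.5 they were 8.85% and 0.731%, and at 9.5 to 10 they were 5.11% and 0.979%. The gap between the medians of members and matched symbol-bearing probe sets was 0.34 ± 0.081 (SD, n = 6 animals) at 8 to 8.5, 0.097 ± 0.038 from 8.5 to 9.5 and -0.012 ± 0.017 from 9.5 up. Over all levels it was 0.076 and 0.072 in the WT animals, 0.078 and 0.139 in CPEB4 GT/+ and 0.110 and 0.143 in CPEB4 KO, above 0 in all 6. The median gap thus rested on members below 9.5, while the surplus of large differences was also seen at 9.5 to 10.

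Split by the end of the ID, the surplus lay in the plain _at sets. These were 1581 of the 2579 members (61.3%), and their median was -0.03 against -0.28 for 5853 symbol-bearing plain _at sets. Of them 37.6% were higher in ELUTED and 14.8% higher by at least 1, against 17.5% and 1.30%. Matched on level, the gap was 0.246 ± 0.068 (SD, n = 6 animals) and above 0 in 6 of 6. At levels of 8 to 8.5 it was 0.487 ± 0.115, with 22.3% of 520 members and 2.25% of 1557 symbol-bearing sets higher by at least 1. From 9.5 up it was still 0.088 ± 0.026 and above 0 in all 6 animals.

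The medians of the other 998 members lay close to those of symbol-bearing probe sets of the same ending. The 358 _a_at members had a median of -0.40 against -0.39, the 217 _s_at members -0.41 against -0.44 and the 423 _x_at members -0.43 against -0.44. Their matched gap was -0.035 ± 0.032 (SD, n = 6) and below 0 in 6 of 6 animals. Large differences towards long tails were still more frequent in them, at 1.70% against 0.290%. Of the 251 members higher by at least 1, 234 (93.2%) were plain _at sets, and so were 76 of the 84 symbol-bearing ones (90.5%). Of the 234 lower by at least 1, 76 (32.5%) were plain _at sets and 68 (29.1%) _x_at sets. The _x_at sets made up 16.4% of members and 5.67% of symbol-bearing probe sets, so the members hold more probe sets whose signal may come from several transcripts.

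Members also differed by the number that opens the ID, in blocks of numbers looked at after the data were seen. In the block from 1440000 to 1444999, where 63.2% of probe sets of any level were unnamed, the 217 members had a median of 0.61, and 70.5% were called higher and 33.6% higher by at least 1. The 221 symbol-bearing probe sets of the same block also lay towards long tails, with a median of 0.07 and 8.60% higher by at least 1. In the block from 1445000 to 1449999 the 181 members had 23.8% higher by at least 1 against 0.926%, and in that from 1455000 to 1459999 the 356 members had 15.7% against 1.63%. In the block from 1415000 to 1419999 the 196 members had 0% and the symbol-bearing sets 0.0676%. The matched gap was 0.58 ± 0.15 (SD, n = 6 animals) inside the block from 1440000 and 0.061 ± 0.023 outside it, where it ran from 0.041 to 0.089 and was above 0 in all 6 animals.

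Symbol-bearing probe sets whose symbols end in Rik or are Gm with digits, the provisional names of mouse genes known mainly from clones or predictions, were closer to the members than other symbol-bearing sets. These 110 had a median of -0.11, with 29.1% higher in ELUTED, both at or above the members' values, and 2.73% higher by at least 1, which is below the members' share. The 8297 with another single symbol had -0.32, 15.5% and 0.928%. These classes were not matched on level or on the end of the ID. The median level of the 110 was 8.80, against 9.11 for the members and for the other single symbols. Members are not independent of each other: 724 of them (28.1%) formed runs of consecutive numbers, the longest of 5, and 11.2% of consecutive symbol-bearing pairs share a symbol. Counts of members are therefore not counts of transcripts.

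The 8 members with the largest called differences towards long tails were all plain _at sets. 1459450_PM_at was at 7.91 and 8.32 in the WASH of the WT animals, 8.36 and 8.46 in CPEB4 GT/+ and 8.55 and 8.20 in CPEB4 KO. Its ELUTED levels were 10.29 and 10.61, 10.72 and 10.76, and 10.92 and 10.56. Every ELUTED array was thus above every WASH array, and the INPUT levels of 9.56 to 9.75 lay between. Its differences of 2.29 to 2.37 hardly varied among animals, with a mean of 2.34 (SE 0.069, limma adjusted p = 1.76e-06). 1456921_PM_at was at 6.63 to 7.13 in WASH, 8.65 to 9.13 in ELUTED and 9.07 to 9.54 in INPUT. It thus had a difference of 2.09 (SE 0.078) while both fractions were below INPUT in most animals. 1444345_PM_at had differences of 1.85 to 2.62, the largest in CPEB4 KO 2, with a mean of 2.14 (SE 0.087). The other 5 were 1441339_PM_at at 2.12, 1430183_PM_at and 1445538_PM_at at 2.02, 1444670_PM_at at 1.98 and 1442341_PM_at at 1.96.

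None of the 8 members with the largest called differences towards short tails was a plain _at set, and these varied more among animals. 1437907_PM_a_at was at 9.44 to 9.78 in WASH and 8.91 to 9.10 in INPUT in all 6 animals. Its ELUTED levels were 7.71 and 8.01 in WT, 8.06 and 6.57 in CPEB4 GT/+ and 6.56 and 5.31 in CPEB4 KO. The ELUTED level of CPEB4 KO 2 was below the highest single ELUTED value of a nonspecific control, 5.60, so its difference there is only a limit. Its differences were -1.97 and -1.54, -1.56 and -3.21, and -2.88 and -4.44, with a mean of -2.60 (SE 0.23, limma adjusted p = 1.70e-05). With a mean-variance trend in eBayes the adjusted p was 0.108, and without CPEB4 KO 2 the difference was -2.34 (adjusted p = 0.000188). The others were 1428554_PM_a_at at -2.33 (-2.13 without CPEB4 KO 2, where its ELUTED level of 5.48 was also under 5.60), 1434356_PM_a_at at -2.21, 1456205_PM_x_at at -2.10, 1436038_PM_a_at at -1.98, 1460637_PM_s_at at -1.93, and 1455364_PM_a_at and 1449410_PM_a_at at -1.92. For all 8 the difference was larger in CPEB4 GT/+ 2 and both CPEB4 KO animals than in WT and CPEB4 GT/+ 1, an order that crosses the genotypes.

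Reference lists of symbol-bearing genes lay mostly on the short-tail side, as values beside the members. Of 70 probe sets of cytosolic ribosomal protein genes 0 were higher in ELUTED and 68 lower, with a median of -0.96. Of 18 poly(A) tail genes, among them deadenylases and poly(A)-binding proteins, 2 were higher and 13 lower, with a median of -0.50. Of 11 nuclear long noncoding RNAs, 4 were higher and 4 lower, with a median of -0.06. The array's control probe sets for the B1 and B2 repeats, short interspersed elements that lie in many mouse transcripts, were higher in ELUTED in 6 of 6 animals, with means of 0.37 to 0.78. Some other controls were higher in ELUTED too: those for 18S ribosomal RNA by 0.16 to 0.36 in 5 or 6 of 6 animals, and the nonspecific control AFFX-NonspecificGC25_at by 0.33 in 6 of 6. That control was the highest of the 23 nonspecific ones, whose median was 0.01, with 11 means below 0 and 12 above. The Gapdh controls had means of -0.26 to -0.11, with 0 of 6 animals above 0, and the actin controls -0.09 to 0.13. Whether members hold repeats was not tested.

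Each fraction was then set against INPUT. For the 725 members called higher, the median of ELUTED minus INPUT was 0.32 (0.13 to 0.50 over animals) and that of WASH minus INPUT -0.43 (-0.54 to -0.33). For the 251 higher by at least 1 these were 0.50 (0.15 to 0.81) and -0.89 (-1.10 to -0.64). With the deposited values their low WASH level thus made up the larger share. This split depends on how the arrays are scaled to each other, and other scalings were not tried for it. For the 84 symbol-bearing probe sets of the same class the medians were 0.61 and -0.65. For the 234 members lower by at least 1, ELUTED was below INPUT by a median of -0.87 and WASH above it by 0.39.

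Both fractions together were then set against INPUT, as the mean of WASH and ELUTED minus INPUT within each animal. Members were called somewhat more often than symbol-bearing probe sets of their level, with medians close to each other. In all 511 members (19.8%) were higher in the column fractions and 698 (27.1%) lower at a limma adjusted p under 0.05, against 16.2% and 15.7% of all probe sets tested, or 46.9% against 31.9% together. Among matched symbol-bearing probe sets 39.6% were called. The medians were -0.02 for both, and the matched gap was 0.005 ± 0.015 (SD, n = 6 animals). Without CPEB4 KO 1, whose INPUT array stood apart, the members' median was -0.037 and the matched gap 0.002. Members lower by at least 1 numbered 9 (0.349%), against 7 symbol-bearing probe sets (0.081%) and 0.133% of all tested. Of the 725 members higher in ELUTED than in WASH, 245 (33.8%) were lower in the column fractions than in INPUT and 136 higher, and 22.6% of the symbol-bearing probe sets higher in ELUTED were lower.

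The controls moved in this comparison too. AFFX-NonspecificGC25_at fell by 1.67 on the log2 scale (-1.83 to -1.49 over animals), further than any member named, and the 18S controls had means of -0.72 to -0.14. The median of the 23 nonspecific controls was -0.03. The part of such background signal in the members' falls was not tested. The member furthest below INPUT was 1440282_PM_at, with -1.54 and -1.38 in WT, -1.29 and -1.51 in CPEB4 GT/+ and -1.41 and -1.53 in CPEB4 KO. The 6 animals lay close together around a mean of -1.44 (SE 0.056, limma adjusted p = 2.15e-06). 1420923_PM_at followed at -1.44 (-1.435), 1456921_PM_at at -1.42, 1458045_PM_at at -1.15, 1433203_PM_at at -1.11, 1450051_PM_at at -1.04, and 1445372_PM_at and 1459675_PM_at at -1.02. Furthest above INPUT was 1440156_PM_s_at, at 8.90 to 9.43 in INPUT, 9.75 to 10.17 in WASH and 9.96 to 10.39 in ELUTED. Neither fraction overlapped INPUT, and the difference was 0.87 (SE 0.058, adjusted p = 4.55e-05). The next were 1438561_PM_x_at at 0.79, 1459838_PM_s_at at 0.74, 1436692_PM_at at 0.73, 1456084_PM_x_at at 0.69, 1447725_PM_at and 1439389_PM_s_at at 0.68 and 1443848_PM_at at 0.67. Of the brightest members, 1421754_PM_at was at 13.40 to 13.66 in INPUT, 12.55 to 13.03 in WASH and 12.93 to 13.22 in ELUTED. It was lower in the fractions than in INPUT by -0.60 (SE 0.051, adjusted p = 0.000112) and higher in ELUTED than in WASH by 0.24 (SE 0.081, adjusted p = 0.0244).

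The genotype comparisons asked whether members differ with loss of CPEB4, and the 3 pairs of genotypes share animals. In INPUT 0 members were called by limma in CPEB4 KO against WT, where 0.0148% of all probe sets tested were. At an unadjusted p under 0.05 there were 427 members (16.6%), 207 higher and 220 lower in CPEB4 KO, where 13% of all probe sets passed (6.15% higher and 6.81% lower). The 844 symbol-bearing probe sets at this p were 715 higher and 129 lower. CPEB4 GT/+ against WT gave 0 members in INPUT, where 0% of all were called (78 members, 3.02%, at an unadjusted p under 0.05, where 3.66% of all passed). CPEB4 KO against CPEB4 GT/+ gave 1, where 0.00888% of all were called (348, 13.5%, unadjusted, where 9.48% of all passed). Among symbol-bearing probe sets matched on level, 9.56%, 2.16% and 7.13% passed unadjusted in these 3 comparisons, in the same order. With all animals kept, the members' median difference of CPEB4 KO in INPUT was 0.047 from WT and 0.022 from CPEB4 GT/+. The medians of symbol-bearing probe sets matched on level were higher than the members', at 0.064 and 0.035. Leaving out the INPUT array of CPEB4 KO 1 with its animal leaves 1 CPEB4 KO animal. The members' median difference from WT in INPUT was then 0.087 in place of 0.047. That of all probe sets tested moved from 0.0009 to 0.023. Against CPEB4 GT/+ the members' median was 0.066 in place of 0.022, and that of all tested moved from -0.004 to 0.025. Of the members named by rule, 1447939_PM_a_at then differed from WT by -2.21, 1435579_PM_at by -1.44 and 1427820_PM_at by 1.16. Leaving out CPEB4 KO 2 leaves the INPUT array of CPEB4 KO 1, with its high liver genes, as the only CPEB4 KO array. Counts of that fit are not read.

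No member passed in the ELUTED minus WASH difference between genotypes. limma called 0 members in CPEB4 KO against WT, 0 in CPEB4 GT/+ against WT and 0 in CPEB4 KO against CPEB4 GT/+, and 0% of all probe sets in each. At an unadjusted p under 0.05 there were 307 (11.9%), 30 (1.16%) and 125 members (4.85%), where 7.39%, 1.61% and 2.65% of all passed. Among symbol-bearing probe sets matched on level 8.62%, 0.385% and 2.52% passed, a smaller share than of members in each. In the average over the 3 fractions of an animal 1 member was called in CPEB4 KO against WT, where 0.0622% of all were, 0 in CPEB4 GT/+ against WT, where 0% of all were, and 2 in CPEB4 KO against CPEB4 GT/+, where 0.0474% of all were. The unadjusted counts were 266 (10.3%), 112 (4.34%) and 267 (10.4%), where 6.46%, 3.69% and 7.02% of all passed. The shares of matched symbol-bearing probe sets were 7.1%, 3.2% and 6.6%.

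1427820_PM_at was the member called in most genotype comparisons. In INPUT it was at 9.80 and 9.55 in WT, 8.79 and 9.07 in CPEB4 GT/+ and 10.83 and 10.84 in CPEB4 KO. In WASH it was at 9.58 and 9.27, 8.79 and 9.07, and 10.80 and 10.45, and in ELUTED at 9.61 and 9.53, 8.97 and 9.42, and 11.24 and 10.98. CPEB4 KO was highest and CPEB4 GT/+ lowest in all 3 fractions with no overlap, so the levels did not follow the number of altered copies. By limma, CPEB4 KO exceeded CPEB4 GT/+ by 1.91 in INPUT (SE 0.13, adjusted p = 0.00802) and by 1.84 in the mean of 3 fractions (adjusted p = 0.00351). It exceeded WT by 1.16 in INPUT (SE 0.13, adjusted p = 0.0587) and by 1.30 in the mean of 3 fractions (SE 0.13, adjusted p = 0.0133). CPEB4 GT/+ minus WT in INPUT was -0.75 (adjusted p = 0.999). Without WT 1 or WT 2 the adjusted p of the mean against WT was 0.169 or 0.140, without the filter on low levels it was 0.0784, and without CPEB4 GT/+ 1 or 2 that of INPUT against CPEB4 GT/+ was 0.216 or 0.176. Leaving out CPEB4 KO 1 leaves 1 CPEB4 KO animal. The difference was then 1.20 for the mean against WT, 1.16 for INPUT against WT and 1.91 for INPUT against CPEB4 GT/+.

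1425263_PM_a_at was the other member called. It was at 8.40 in the INPUT of both WT animals, 8.12 and 8.41 in CPEB4 GT/+ and 8.75 and 8.80 in CPEB4 KO. Its ELUTED levels were 8.35 in both WT animals, 8.08 and 8.05 in CPEB4 GT/+ and 8.94 and 9.15 in CPEB4 KO. CPEB4 KO was thus highest without overlap in both. The mean of 3 fractions was 0.62 above CPEB4 GT/+ (SE 0.076, limma adjusted p = 0.0491). That p was 0.0829 without CPEB4 KO 1 and was above 0.05 with any animal other than CPEB4 KO 2 left out, reaching 0.218 without CPEB4 GT/+ 1. Against WT it was 0.46 (adjusted p = 0.188).

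With all 6 animals the other members that the naming rule picked did not pass between genotypes, and those with the smallest adjusted p in CPEB4 KO against WT in INPUT after 1427820_PM_at were at lower levels in CPEB4 KO. 1456655_PM_at was at 9.67 and 9.61 in the INPUT of WT, 9.44 and 9.61 in CPEB4 GT/+ and 8.78 and 8.64 in CPEB4 KO, a KO minus WT difference of -0.93 (SE 0.11, limma adjusted p = 0.0596, and 0.0655 without CPEB4 KO 1). 1454314_PM_at was at 8.88 and 9.23, 9.10 and 8.91, and 8.00 and 7.66, a difference of -1.22 (SE 0.16, adjusted p = 0.101). Without CPEB4 KO 1 it was -1.40, with 1 CPEB4 KO animal left and so no spread within that genotype. Both CPEB4 KO animals were below the other 4 at both probe sets. 1447939_PM_a_at was at 10.64 and 10.88, 10.73 and 10.66, and 9.91 and 8.55, with the lowest value in CPEB4 KO 2. It was also lowest in that animal in WASH (8.39) and ELUTED (8.79), and in the mean of 3 fractions CPEB4 KO was at -1.35 from WT (SE 0.32, adjusted p = 0.445). The adjusted p was 0.00038 without CPEB4 KO 1 and 0.0382, with a difference of -0.70, without CPEB4 KO 2.

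Members with large differences towards long tails were lower in the INPUT of both CPEB4 KO animals, which the ELUTED minus WASH values did not use. Taken from the WT mean of each probe set, the median INPUT level of the 251 members higher in ELUTED by at least 1 was -0.04 and 0.04 in the WT animals. It was -0.09 and -0.01 in CPEB4 GT/+ and -0.29 and -0.30 in CPEB4 KO 1 and 2. Both CPEB4 KO animals were below both WT animals for 196 of the 251 (78.1%), where this held for 24.6% of all probe sets tested. For the 84 symbol-bearing probe sets of that class the CPEB4 KO medians were -0.18 and -0.19, and 44 (52.4%) lay below WT without overlap. For all 725 members higher in ELUTED the medians were -0.14 and -0.12, with 353 (48.7%) below. The 1317 members lower in ELUTED had medians of 0.06 and 0.15, and 544 (41.3%) lay above WT without overlap, against 20.7% of all tested. These counts over 2 animals a genotype carry no call by limma for any member, and members are not independent. The values of CPEB4 KO 1 come from the array with the liver genes. In CPEB4 KO 2 alone 208 of the 251 (82.9%) and 51 of the 84 symbol-bearing probe sets (60.7%) were below both WT animals, where 34.5% of all probe sets tested were. The cause was not tested.

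In the column fractions, whose values set the classes, the same 251 members are described without a reading. In WASH their medians in CPEB4 KO 1 and 2 were 0.02 and -0.36, and 68 (27.1%) lay below WT without overlap, where 17.9% of all tested did. In ELUTED the medians were 0.26 and 0.16, with 0.32 in CPEB4 GT/+ 2, and 151 (60.2%) lay above WT without overlap, where 26.8% of all did. The 234 members lower by at least 1 had ELUTED medians of -0.57 in CPEB4 GT/+ 2 and of -0.45 and -0.65 in CPEB4 KO 1 and 2, but 0.21 in CPEB4 GT/+ 1. Of them 192 (82.1%) lay below WT in both CPEB4 KO animals, as did 81.1% of the symbol-bearing probe sets of that class and 21.1% of all tested. The SD across all probe sets was 1.78 to 1.90 on ELUTED arrays, 1.95 to 2.01 on WASH and 1.88 to 1.95 on INPUT, and its part in these values was not tested.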

How the data were processed

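The deposited table holds log2 values of 45141 probe sets on 18 arrays, which the authors computed by RMA (named, with no version, in the submitters' processing notes). Symbols came from the supplied probe-to-gene table, and members are named by ID, since gene names and probe sequences were not used here. Differences were taken within an animal, whose 3 fractions the labels tie together, and fitted with limma 3.58.1 in R 4.3.3 (genotype means over all 6 animals, eBayes without trend, 3 residual degrees of freedom, two-sided, Benjamini-Hochberg over 33777 probe sets). The lowest 25% of probe sets by mean, at or under 5.12, were left out, and all members and symbol-bearing comparators passed. There were 11 comparisons, and called means an adjusted p under 0.05. Matched values weight symbol-bearing probe sets to the members in bins of 0.5 log2, as a description. The number of arrays limits the precision. SE are limma's and SD are between animals, where not said to be across probe sets. Simulated data had 33777 probe sets with independent noise, of which 50 were changed by each size tried. There the ELUTED minus WASH fit recovered 33 of 50 changes of 0.58, 46 of 50 of 1 and 39 of 50 of -1, with 9 false calls. The fit of CPEB4 KO minus WT in the mean of 3 fractions recovered 27, 39 and 42, with 5 false calls. In the measured ELUTED minus WASH values 75.6% of probe sets were called, so the simulated recoveries do not carry over to them.

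Members are named by rule: the 5 of highest level, 3 on each side of the threshold, up to 8 in each direction per fraction comparison with the largest called differences, and per genotype comparison those called or, below 10 calls, up to 3 in each direction with the smallest p, without overlap and at least 0.58. The text names a selection of the last. Members, lists and rule were chosen with earlier results of these data known. Alternatives were other filters, scalings, trend, blocks, plain _at sets, level threshold, bins and each animal left out. Beside them, the count of members higher by at least 1 was recomputed under each, a choice made after seeing the data.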

Additional observations from a re-analysis of the deposited data

How the results depend on the processing

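The count of 2042 members called in ELUTED minus WASH stayed between 1812 and 2145 with each animal left out and was 1220 over plain _at members alone, which are fewer. The count of 1209 against INPUT was 712 over them. The matched gap of 0.103 was 0.246 in plain _at sets, 0.0138 at a level of at least 9, and 0.095 to 0.109 with each animal left out. The gap against INPUT was -0.018 in plain _at sets. The median of all probe sets tested was -0.49 with arrays aligned on the hybridisation controls, -0.12 with arrays centred and 0.02 after quantile normalization. Aligned arrays gave 92 members higher by at least 1 in place of 251 (235 to 268 with each animal left out). Counts in genotype comparisons moved most. Over all 33777 probe sets tested, CPEB4 KO against WT in INPUT gave 5 calls in the main fit, 415 with aligned arrays and 12 with a trend. With the lowest 50% left out it gave 19 of 22518. CPEB4 KO against CPEB4 GT/+ in INPUT gave 3 in the main fit and 435 with aligned arrays. The counts that follow are of members. Fits with an animal left out keep 1 animal of its genotype, so their counts are given without a reading. In INPUT, CPEB4 KO against WT gave 3 with the lowest 50% left out, 34 (28 higher) with aligned arrays, 3 with a trend and 0 to 32 with each animal left out. CPEB4 KO against CPEB4 GT/+ gave 32 (26 higher) with aligned arrays and 0 to 30, 0 without either CPEB4 GT/+ animal. In the mean of 3 fractions CPEB4 KO against WT gave 0 without a filter and 0 to 7 (0 without either WT animal, 7 and 6 without CPEB4 KO 1 and 2). CPEB4 KO against CPEB4 GT/+ gave 1 without a filter, with centred arrays, after quantile normalization, with a trend and in plain _at sets, and 1 to 9 (7 and 9 without CPEB4 KO 1 and 2). In CPEB4 GT/+ against WT the ratio gave 0 to 18, 18 without CPEB4 GT/+ 1. The cause was not tested. Of 936 values of named members 886 kept their direction and side of the threshold, 18 lost the call, 32 gained it and 0 reversed.

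The labels do not say that replicate numbers pair animals of different genotypes. Deviations of same-numbered animals correlated at -0.09 to -0.03 in INPUT and -0.32 to 0.48 in the ratio. The 0.48 was between CPEB4 GT/+ and CPEB4 KO, and whether same-numbered animals share a batch was not tested. With the number as a replicate block limma called 0 members in CPEB4 KO against WT in INPUT (380 at an unadjusted p under 0.05), 0 in CPEB4 KO against CPEB4 GT/+ in INPUT (320), 0 in CPEB4 KO against WT in the mean of 3 fractions (243) and 1 in CPEB4 KO against CPEB4 GT/+ there. Without the pairing of fractions by animal (no replicate block) ELUTED minus WASH gave 2105 and the comparison with INPUT 980.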
